A study of Mus musculus with 203 samples.

Results

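Myc and 42 factors that make ribosomes, 43 genes in all, were measured in mouse macrophages. The genes are a list of names, found by the symbol given for each gene. All 43 were found, as 43 of the 25094 genes listed for the RAW macrophage cell line and 43 of the 16478 genes listed for primary bone marrow-derived macrophages (BMDMs).

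Ribosomes are built in the nucleolus. RNA polymerase I transcribes a long ribosomal RNA precursor, which is modified by small nucleolar ribonucleoprotein particles (snoRNPs), cut, folded and joined with ribosomal proteins by a large set of assembly factors. The small subunit processome matures the 40S subunit, and a separate series of particles matures the 60S subunit. Myc is a transcription factor that heterodimerizes with Max on a short DNA element called the E-box, and genes of ribosome biogenesis are among its best known targets. Macrophages that meet the cytokine interleukin 4 (IL4) signal through STAT6 and take on an alternatively activated state, and Myc is known as one of the transcription factors of that state.

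RAW264.7 (RAW) is a macrophage line established from a virus-induced tumour of a BALB/c mouse. The experiment asked how depletion of KDM1A (LSD1), a histone demethylase, alters the response to IL4. RNA-seq had 4 groups of 4 libraries each: RAW cells with a lentiviral shRNA against GFP and no IL4 (shGFP), the same line with 20 ng/ml of IL4 for 6 h (shGFP with IL4), RAW cells with a lentiviral shRNA against Kdm1a and no IL4 (shKDM1A), and that line with 20 ng/ml of IL4 for 6 h (shKDM1A with IL4). All cells carried a stably integrated hairpin and had been selected with puromycin. The Kdm1a line rests on 1 hairpin, so an effect of KDM1A loss and another difference between the selected lines cannot be told apart. The study's methods speak of biological replicates for its experiments in general, while the labels do not say which of these libraries came from separate cultures, and p-values measure the spread between these libraries. The labels give the RAW line as the source of these libraries, although their RNA protocol text speaks of BMDMs. For BMDMs the table analysed here holds no value for single libraries, so levels are given for RAW cells only.

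The level of a gene is given on the deposited log2 scale, on which a difference of 1 is a doubling. Of the 25094 genes, 12905 reached a level of 1 or more in 4 or more libraries and were tested with limma, and all 43 members were among them. A gene is called higher or lower where its p-value from limma, adjusted over all 12905 genes by the Benjamini-Hochberg method, was under 0.05. Within a group, the SD of a member over its 4 libraries ran from 0.0061 to 0.13 with a median of 0.034, and differences between groups are given as log2 fold changes, negative where the second group (with IL4, or shKDM1A) was lower.

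Libraries held 17554721 to 27782568 tags each, as the column headers give them. Kdm1a, the target of the hairpin, ranged from 11.07 to 11.23 in the 8 shGFP libraries and from 10.23 to 10.36 in the 8 shKDM1A libraries, a difference of -0.88 (SE 0.03) without IL4. Of 10 macrophage markers 9 were detected (Lyz2, Csf1r and Cd68 between 13.58 and 17.18), and Mertk was at its floor. No marker of T cells, B cells, fibroblasts or epithelial cells passed the filter. Of 4 endothelial markers 2 did, Pecam1 at 1.38 to 1.44 and Kdr at 1.45 to 1.52, just over the limit of 1. Of 8 known IL4 targets 6 were tested, and all 6 rose with IL4 in each line, by a median of 0.73 in shGFP and 0.47 in shKDM1A cells (Ptgs1 by 1.77 and 1.08, Mrc1 by 1.32 and 0.50). For 4 of the 6 the response was lower in shKDM1A cells, and for 1 it was higher. The 4 libraries of shKDM1A cells with IL4 stood apart from each other in pairs. Over all genes tested, the deviations of replicates 1 and 3 from the group mean correlated with those of replicates 2 and 4 at -0.51 to -0.61, and the difference between the pairs fell with the summed exon length of a gene (Spearman's rho -0.51 across 12905 genes, which are not independent). Among members it ran from -0.22 for Utp20 to 0.14 for Utp3, with a median size of 0.041. Within the pairs the correlations were 0.03 and 0.18. In the other 3 groups all pairs of libraries correlated negatively, at -0.14 to -0.50, as deviations from a shared mean do. All results were therefore recomputed without each pair, and with the trend on length removed from each library, which are settings chosen after the data were seen, and calls that they ended are named beside each member.

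Levels of different members were compared per kilobase of exon. By this measure in the shGFP group, Npm1 was the most abundant member (log2 level of 14.70 per kb, above 99.7% of the genes tested) and Ncl was next at 12.46. Fbl at 12.28, Nhp2 at 12.23 and Nop56 at 11.66 followed. The RNA polymerase I subunits Polr1a at 8.44 and Polr1b at 8.49 and the processome proteins Rrp12 at 8.37 and Utp20 at 8.40 were near the low end. Myc was the least abundant member at 5.03, above 22.1% of the genes tested. Every other member was above at least 62.5% of the genes tested.

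Promoters were examined because Myc binds E-boxes and STAT6 binds a palindrome with a spacer of 4 bases. RefSeq promoter sequences (250 bases before to 50 after the start, build GRCm38.p6) were found for 35 of the 43 members, as 39 promoters, and not for Myc, Npm1, Fbl, Nol6, Utp6, Rrp12, Rrs1 or Bop1. The E-box CACGTG, which reads the same on both strands, was in 8 of the 39 promoters (20.5%), against 7.15% of all 32851 promoters and 10.1% of the promoters of the genes tested. These 8 belong to Nol11, Nop2, Pes1, Tsr1, Utp18, Utp20, Utp4 and Wdr43. The STAT6 motif, TTC and GAA with any 4 bases between, was in 7 member promoters (17.9%, against 6.95% of all and 5.62% of those of the genes tested), those of Bysl, Ddx21, Dkc1, Nop14, Nop16, Rrp8 and Utp3. With a spacer of 3 bases, the motif of other STAT proteins was in 4 (10.3%, against 8.30% of all and 6.87% of those of the genes tested), those of Nol8, Nop58, Polr1b and Utp15. Matches are letters in a window and were not tested as binding sites.

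The 5 promoters printed here belong to genes that rose with IL4 in shKDM1A cells (Bysl not without replicates 1 and 3 of that group), the first 3 with an E-box in capitals and the last 2 with a STAT6 motif in capitals. Of the 8 members with an E-box these 3 were called higher there and Nol11, Tsr1, Utp20, Utp4 and Wdr43 were not, and of the 7 with a STAT6 motif Ddx21, Nop14 and Utp3 were not. Over all 43 members 19 were called higher there (44.2%, against 13.6% of all genes tested). A link between motif and IL4 response was not tested. The E-box starts at position 3 after the start of Pes1 (chr11:3963725-3964024, plus strand), at -60 for Nop2 (chr6:125131633-125131932, plus strand) and at -20 for Utp18 (chr11:93885717-93886016, minus strand). The STAT6 motif starts at -15 for Nop16 (chr13:54590025-54590324, minus strand) and at -131 for Bysl (chr17:47611443-47611742, minus strand). All are written 5′ to 3′ in the direction of the gene.
Pes1: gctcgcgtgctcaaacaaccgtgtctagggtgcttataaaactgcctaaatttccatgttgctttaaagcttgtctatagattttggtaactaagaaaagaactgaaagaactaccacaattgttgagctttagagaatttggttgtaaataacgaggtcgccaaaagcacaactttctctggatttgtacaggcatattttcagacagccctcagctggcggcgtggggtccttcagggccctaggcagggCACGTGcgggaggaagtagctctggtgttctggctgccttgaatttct
Nop2: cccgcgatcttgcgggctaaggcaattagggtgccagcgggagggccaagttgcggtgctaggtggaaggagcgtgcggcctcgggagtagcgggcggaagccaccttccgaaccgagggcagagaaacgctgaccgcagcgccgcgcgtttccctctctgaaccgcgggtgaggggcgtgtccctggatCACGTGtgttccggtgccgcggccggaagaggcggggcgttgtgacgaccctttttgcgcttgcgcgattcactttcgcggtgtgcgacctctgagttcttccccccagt
Utp18: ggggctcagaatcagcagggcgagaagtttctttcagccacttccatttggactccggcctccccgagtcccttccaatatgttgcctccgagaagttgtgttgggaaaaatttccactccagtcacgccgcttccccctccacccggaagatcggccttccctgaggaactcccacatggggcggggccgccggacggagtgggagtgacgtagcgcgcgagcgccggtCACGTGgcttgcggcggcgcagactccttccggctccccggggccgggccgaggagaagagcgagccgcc
Nop16: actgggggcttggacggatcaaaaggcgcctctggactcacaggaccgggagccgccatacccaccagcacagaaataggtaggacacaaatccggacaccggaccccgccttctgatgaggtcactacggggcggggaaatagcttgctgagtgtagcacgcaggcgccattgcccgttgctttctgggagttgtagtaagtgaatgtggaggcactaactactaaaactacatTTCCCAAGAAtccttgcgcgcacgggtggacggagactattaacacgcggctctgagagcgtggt
Bysl: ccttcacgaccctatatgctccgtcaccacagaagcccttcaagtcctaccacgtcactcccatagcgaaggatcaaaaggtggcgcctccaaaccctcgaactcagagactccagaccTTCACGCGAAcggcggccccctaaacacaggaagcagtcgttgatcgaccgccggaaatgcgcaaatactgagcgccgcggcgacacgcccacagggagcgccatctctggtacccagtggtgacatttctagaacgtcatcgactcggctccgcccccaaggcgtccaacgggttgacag

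Myc was induced by IL4 in both lines, and this was the largest change of any member. Myc, on chromosome 15 of mm9 from 61816896 to 61821916 on the plus strand, stood at 6.27, 6.34, 6.31 and 6.22 in the shGFP libraries and at 6.80, 6.80, 6.90 and 6.82 in the shGFP libraries with IL4. In shKDM1A cells it stood at 6.23, 6.40, 6.25 and 6.37 without IL4 and at 6.93, 7.11, 7.02 and 6.91 with IL4. All 8 libraries with IL4 were above all 8 libraries without it. IL4 raised Myc by 0.54 (SE 0.05), which is 1.46-fold (limma adjusted p = 1.46e-07), in shGFP cells and by 0.68 (SE 0.05), which is 1.60-fold (adjusted p = 9.78e-09), in shKDM1A cells. Without IL4 the 2 lines overlapped and differed by 0.03 (SE 0.05, adjusted p = 0.686), while with IL4 every shKDM1A library was above every shGFP library, by 0.17 (SE 0.05, adjusted p = 0.00883). The difference between both IL4 responses, 0.14 (SE 0.07), was not called (adjusted p = 0.223). The transformation behind the deposited values is not given, and whether it understates these fold changes of a weakly expressed gene was not tested. As RNA of whole cultures was measured, a change in Myc per cell and a change in the share of cells that express it cannot be told apart. Mycn, a relative of Myc outside the list of members, stood far higher on the same scale, which is not per length, at 14.19 to 14.52. It fell with IL4, with log2 fold changes of -0.24 in shGFP and -0.19 in shKDM1A cells. The part of Mycn in the members' values was not tested.

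**Figure D1:**
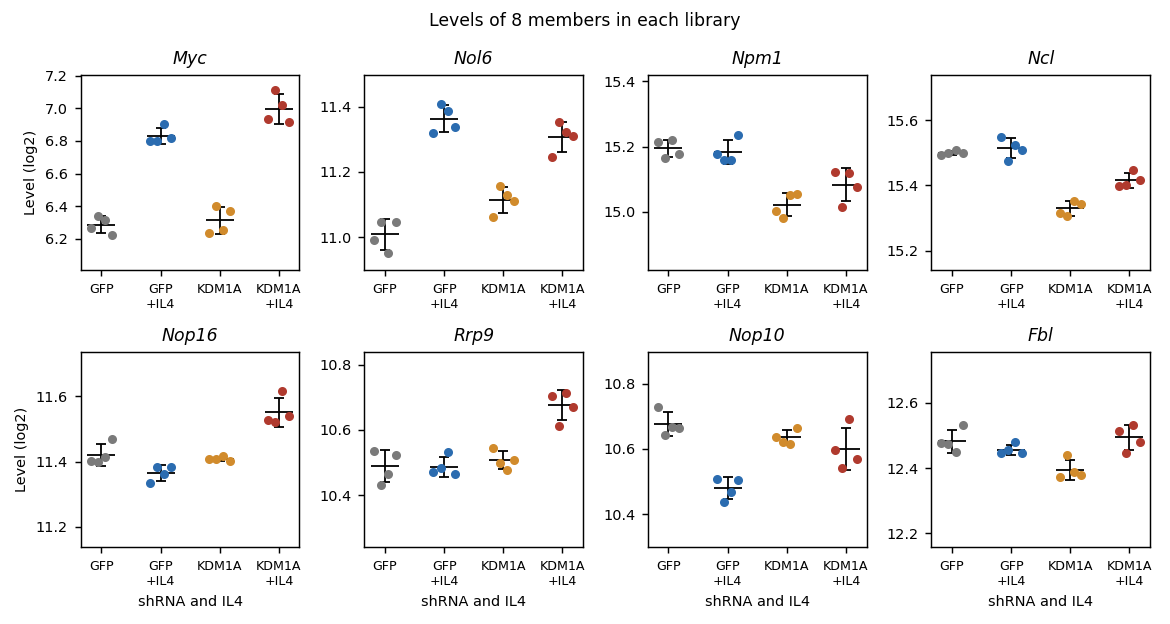
Levels of 8 members (log2, vertical axis, a separate range in each panel) in the 4 libraries of each group (points), with the mean and SD as bars. Myc was higher in all 8 libraries with IL4, Ncl and Npm1 were lower in all shKDM1A libraries than in any shGFP library without IL4, and Nop16 and Rrp9 were highest in the 4 shKDM1A libraries with IL4.

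IL4 raised more members in shKDM1A cells than in shGFP cells, a difference in counts that was not itself tested. In shGFP cells IL4 raised 8 of the 43 members (18.6%, against 13.1% of all genes tested) and lowered 5 (11.6%, against 13.7% of all), and the median log2 fold change of the members was 0.0011, against -0.00049 over all genes. Quantile normalization gave 9 higher and 3 lower. In shKDM1A cells IL4 raised 19 members (44.2%, against 13.6% of all genes) and lowered 2 (4.65%, against 13.5%), with a median of 0.042 against -0.0025 over all genes. With an absolute log2 fold change over 0.2 also required, only Myc and Nol6 in shGFP cells and only Myc in shKDM1A cells were left. Without replicates 1 and 3 of shKDM1A with IL4 the counts in shKDM1A cells were 15 higher and 3 lower, without replicates 2 and 4 they were 16 and 1, and with the length trend removed they were 20 and 3. Of the 8 members that rose in shGFP cells 6 also rose in shKDM1A cells, which is 75.0% of the first and 31.6% of the second list, against 56.1% and 54.3% over all genes. Both members that fell in shKDM1A cells were among the 5 that fell in shGFP cells (40.0% of these, against 51.5% over all genes). These 2 responses share no libraries. The median SE of a comparison of 2 groups was 0.026 for members and 0.032 for all genes tested, so members could be called at smaller changes. The part of this in the shares called was not tested.

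Between the lines, more members were lower than higher in shKDM1A cells. Without IL4, 18 of the 43 were lower (41.9%, against 18.4% of all genes) and 2 were higher (4.65%, against 19.7%), with a median log2 fold change of -0.055 against -0.0027 over all genes. With IL4, 15 were lower (34.9%, against 19.8%) and 5 were higher (11.6%, against 20.9%), with a median of -0.037 against -0.0024. The lowest log2 fold change of any member was -0.18 in both comparisons. Without replicates 1 and 3 of shKDM1A with IL4, 12 members were lower and 4 higher with IL4, without replicates 2 and 4 it was 9 and 5, and with the length trend removed 11 and 6. The comparison without IL4 shares only its estimate of the spread with these libraries, and leaving out either pair gave 20 lower and 2 higher there. Of the 18 members lower without IL4, 11 were also lower with IL4, which is 61.1% of the former and 73.3% of the 15 lower there, against 58.8% and 54.7% over all genes, and no member was higher in both, against 72.1% of the genes higher without IL4.

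The IL4 response differed between the lines for 6 of the 43 members. It was higher in shKDM1A than in shGFP cells for 5 (11.6%, against 3.56% of all genes), Fbl, Nop10, Rrp9, Nop16 and Bop1, and lower for 1 (2.33%, against 2.57%), Nol6. Without replicates 1 and 3 of shKDM1A with IL4 the counts were 1 and 0, with the length trend removed 4 and 0, and with 1 library left out 2 to 6 and 0 to 1. The comparisons within lines, between lines and of the difference share libraries, so they are not independent of each other. The shKDM1A libraries without IL4 enter the counts lower between the lines and the counts raised by IL4 in shKDM1A cells, with opposite sign.

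**Figure D2:**
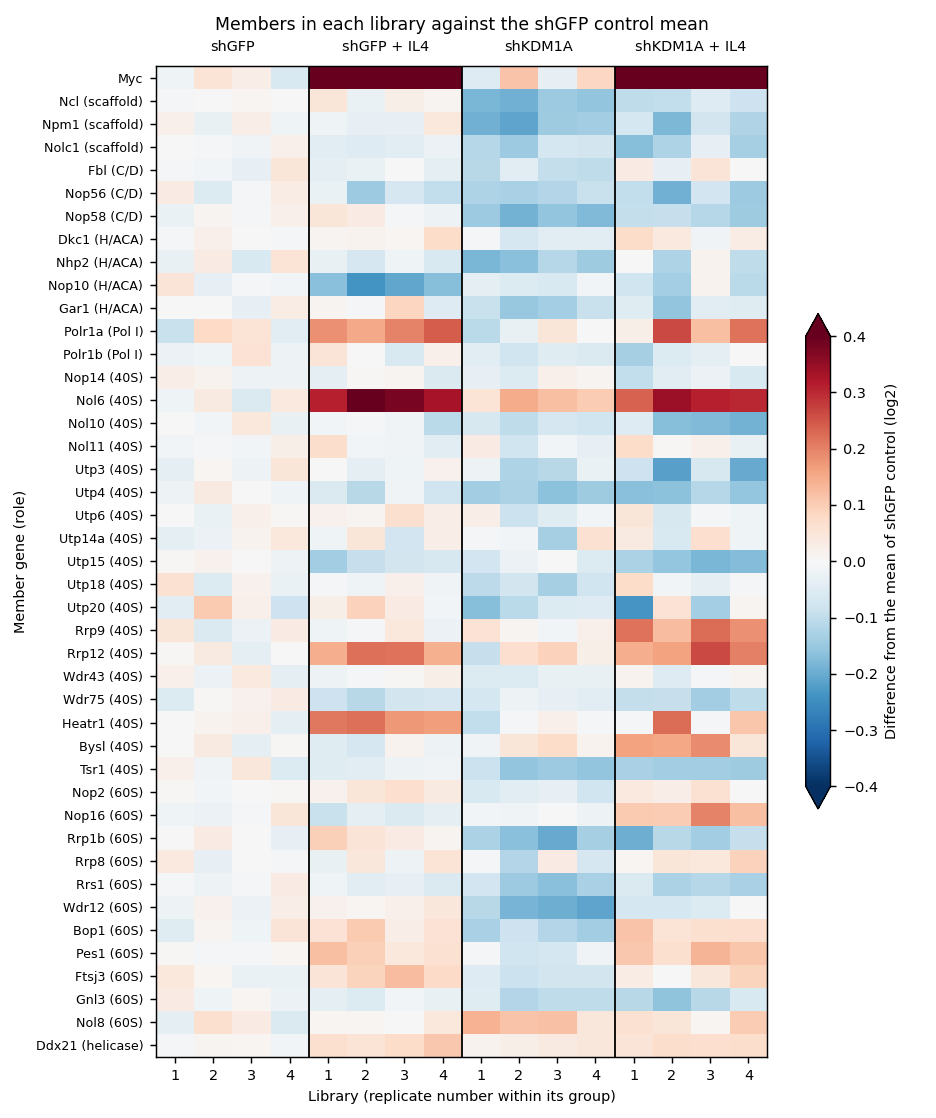
Every member (rows, grouped by role) in every library (columns, 4 per group), coloured by its difference in log2 level from the mean of the 4 shGFP libraries without IL4. Myc and Nol6 are darkest with IL4 in both lines, and the shKDM1A columns without IL4 are mostly blue; the colour scale ends at 0.4, which Myc exceeds.

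**Figure D3:**
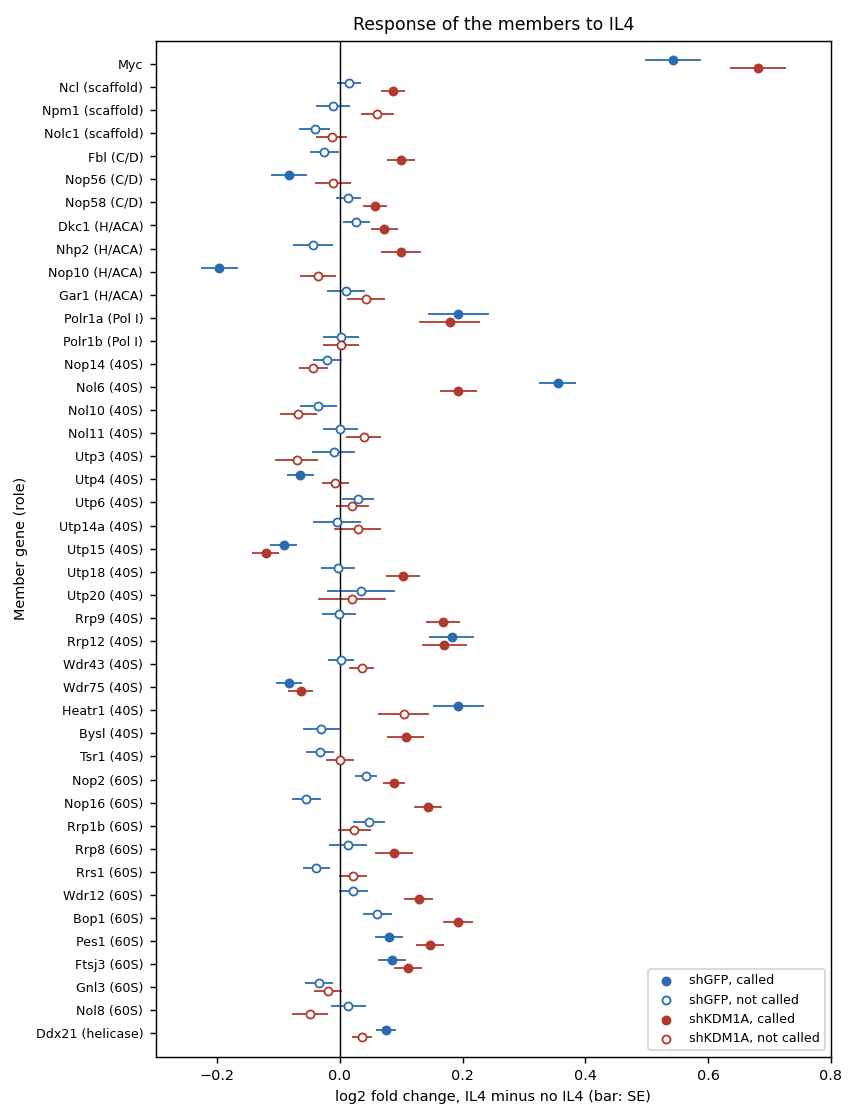
Log2 fold change of each member with IL4 (horizontal axis, with its SE as a bar) in shGFP cells and in shKDM1A cells. Filled points were called at an adjusted p under 0.05, 13 in shGFP cells and 21 in shKDM1A cells; points other than Myc lie within 0.4 of 0.

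The nucleolar scaffold and chaperone proteins were lower in shKDM1A cells. Ncl is nucleolin, an abundant RNA-binding protein of the nucleolus, Npm1 is nucleophosmin, a nucleolar chaperone, and Nolc1 chaperones snoRNPs. Ncl, on chromosome 1 from 88241294 to 88256030, stood at 15.49, 15.50, 15.51 and 15.50 in shGFP cells and at 15.32, 15.31, 15.35 and 15.34 in shKDM1A cells without IL4, and at 15.55, 15.47, 15.52 and 15.51 (shGFP) and 15.40, 15.40, 15.45 and 15.42 (shKDM1A) with IL4. The lines did not overlap under either condition. Ncl was lower in shKDM1A cells at -0.17 (SE 0.02) without IL4 (adjusted p = 2.47e-06) and at -0.10 (SE 0.02) with IL4 (adjusted p = 0.000624). The difference with IL4 was -0.01 with the length trend removed and was then not called, whereas quantile normalization gave -0.29 without IL4 and -0.36 with it, both called. Ncl rose with IL4 in shKDM1A cells by 0.09 (SE 0.02, adjusted p = 0.00279), but under quantile normalization this value was -0.000875. It changed by 0.01 (SE 0.02) in shGFP cells, where it was not called.

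Npm1, on chromosome 11 from 33052498 to 33063206, stood at 15.21, 15.17, 15.22 and 15.18 in shGFP cells and 15.00, 14.98, 15.05 and 15.05 in shKDM1A cells, and with IL4 at 15.18, 15.16, 15.16 and 15.24 (shGFP) and 15.12, 15.02, 15.12 and 15.08 (shKDM1A). Again the lines were separate without IL4 and with it. Npm1 was lower in shKDM1A cells at -0.17 (SE 0.03) without IL4 (adjusted p = 9.86e-05) and at -0.10 (SE 0.03) with IL4 (adjusted p = 0.00801), the latter not called without replicates 2 and 4 of shKDM1A with IL4 (-0.062, adjusted p = 0.106). Nolc1 was lower at -0.10 (SE 0.03) and -0.07 (SE 0.03), both called, the latter not with the length trend removed (-0.060, adjusted p = 0.0861) or without replicates 2 and 4 of shKDM1A with IL4 (-0.061, adjusted p = 0.155). Neither Npm1 nor Nolc1 passed the test for IL4 in either line, with values between -0.04 and 0.06, but Npm1 was called higher in shKDM1A cells without replicates 2 and 4 with IL4 (0.10, adjusted p = 0.0186).

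Box C/D snoRNPs methylate ribosomal RNA on the ribose. Their methyltransferase fibrillarin (Fbl) stood at 12.48, 12.47, 12.45 and 12.53 in shGFP cells, 12.45, 12.46, 12.48 and 12.44 with IL4, 12.37, 12.44, 12.39 and 12.38 in shKDM1A cells and 12.51, 12.45, 12.53 and 12.48 in shKDM1A cells with IL4. The shKDM1A libraries without IL4 were the lowest of the 4 groups and lay below every shGFP library without IL4. Fbl was lower in shKDM1A cells without IL4 at -0.09 (SE 0.02, adjusted p = 0.00725) and rose with IL4 in those cells by 0.10 (SE 0.02, adjusted p = 0.00427), against -0.03 (SE 0.02) in shGFP cells. This rise was not called without replicates 1 and 3 of shKDM1A with IL4 (0.07, adjusted p = 0.0808). The 2 responses differed by 0.13 (SE 0.03, adjusted p = 0.0357), a call lost with the length trend removed (0.09, adjusted p = 0.0814) and without replicates 1 and 3 of shKDM1A with IL4 (0.10, adjusted p = 0.172).

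The scaffold proteins of the same particle, Nop58 and Nop56, were also lower in shKDM1A cells without IL4. Nop58 stood at 12.47, 12.51, 12.49 and 12.52 in shGFP and 12.35, 12.31, 12.34 and 12.32 in shKDM1A libraries without IL4 and at 12.54, 12.53, 12.49 and 12.48 (shGFP) and 12.40, 12.40, 12.38 and 12.35 (shKDM1A) with it, with no overlap between the lines under either condition. It was lower at -0.17 (SE 0.02, adjusted p = 4.38e-06) and -0.12 (SE 0.02, adjusted p = 0.000103). Its rise with IL4 in shKDM1A cells, 0.06 (SE 0.02, adjusted p = 0.0436), was not called with the length trend removed or without either pair of libraries. The call of this rise was also lost when any of 8 libraries was left out alone. Nop56 stood at 12.72, 12.63, 12.68 and 12.72 in shGFP libraries and at 12.66, 12.54, 12.62 and 12.59 with IL4, which overlapped, and its fall of 0.08 (SE 0.03) with IL4 (adjusted p = 0.0452) was lost when any of 11 libraries was left out. Nop56 was lower in shKDM1A cells at -0.12 (SE 0.03) without IL4 (adjusted p = 0.00509).

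Box H/ACA snoRNPs convert uridines of ribosomal RNA to pseudouridine. The pseudouridine synthase Dkc1 stood at 12.02, 12.05, 12.03 and 12.02 in shGFP cells, 12.04, 12.04, 12.04 and 12.10 with IL4, 12.02, 11.96, 11.99 and 11.98 in shKDM1A cells and 12.10, 12.07, 12.02 and 12.06 in shKDM1A cells with IL4. Its 4 groups overlapped in each comparison, and it was called only for IL4 in shKDM1A cells, by 0.07 (SE 0.02, adjusted p = 0.0224). That call was lost without replicates 2 and 4 of shKDM1A with IL4 (0.07, adjusted p = 0.0771), and when shKDM1A replicate 2 or 4 or shKDM1A with IL4 replicate 1 was left out alone. Nhp2, an RNA-binding subunit, was lower in shKDM1A cells without IL4 at -0.15 (SE 0.03) and rose with IL4 in those cells by 0.10 (SE 0.03), the rise not called without replicates 1 and 3 with IL4 (0.04, adjusted p = 0.465). Gar1 was lower in shKDM1A cells at -0.12 (SE 0.03) without IL4 and -0.09 (SE 0.03) with it, the latter not called without replicates 2 and 4 of shKDM1A with IL4 (-0.058, adjusted p = 0.19).

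Nop10, a small subunit of the same particle, had the largest fall of any member with IL4 in shGFP cells. Its level was 10.73, 10.64, 10.67 and 10.67 in shGFP libraries and 10.51, 10.44, 10.47 and 10.51 with IL4, with no overlap, and 10.64, 10.62, 10.62 and 10.67 without IL4 and 10.60, 10.54, 10.69 and 10.57 with it in shKDM1A libraries, which overlapped. It fell in shGFP cells by 0.20 on the log2 scale (SE 0.03, adjusted p = 9.39e-05), changed by -0.04 (SE 0.03) in shKDM1A cells without being called, and was higher in shKDM1A than in shGFP cells with IL4 by 0.12 (SE 0.03, adjusted p = 0.00411). The responses differed by 0.16 (SE 0.04, adjusted p = 0.033). With the length trend removed the difference was 0.13 (adjusted p = 0.0485), and without replicates 1 and 3 of shKDM1A with IL4 it was 0.12 (adjusted p = 0.111). Without them the difference between the lines with IL4 was not called either (0.07, adjusted p = 0.058). Nop10 has the shortest exons of all members, 734 bases.

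Of the 2 RNA polymerase I subunits, the largest, Polr1a, rose with IL4 in both lines and Polr1b in neither. Polr1a stood at 10.96, 11.13, 11.10 and 11.00 in shGFP libraries and 11.23, 11.20, 11.24 and 11.29 with IL4, with no overlap. In shKDM1A libraries it stood at 10.94, 11.02, 11.09 and 11.05 without IL4 and 11.07, 11.31, 11.17 and 11.26 with it, where 1 library with IL4 lay within the range of those without. It rose by 0.19 (SE 0.05) in shGFP cells (adjusted p = 0.00829) and by 0.18 (SE 0.05) in shKDM1A cells (adjusted p = 0.0128), the latter not called without replicates 2 and 4 of shKDM1A with IL4 (0.09, adjusted p = 0.189). Polr1b changed by 0.00 (SE 0.03) with IL4 in both lines and by -0.06 (SE 0.03) between the lines with and without IL4, none of them called.

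The 18 factors of the small subunit processome and of 40S maturation had shares called with IL4 in shGFP cells near those of all genes. IL4 raised 3 of them there (Nol6, Rrp12 and Heatr1; 16.7%, against 13.1% of all genes) and lowered 3 (Utp4, Utp15 and Wdr75; 16.7%, against 13.7%), with a median of -0.0042. In shKDM1A cells IL4 raised 5 (Nol6, Utp18, Rrp9, Rrp12 and Bysl; 27.8%, against 13.6%) and lowered 2 (Utp15 and Wdr75; 11.1%, against 13.5%), with a median of 0.025. Between the lines, 3 were lower in shKDM1A cells without IL4 (16.7%, against 18.4%) and 1 was higher (5.56%, against 19.7%), and with IL4 6 were lower (33.3%, against 19.8%) and 2 higher (11.1%, against 20.9%).

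Nol6, on chromosome 4 from 41061460 to 41071372, is a processome protein bound early to the precursor, and it had the largest response after Myc. It stood at 10.99, 11.05, 10.95 and 11.05 in shGFP libraries and 11.32, 11.41, 11.39 and 11.34 with IL4, and at 11.06, 11.16, 11.13 and 11.11 without IL4 and 11.24, 11.35, 11.32 and 11.31 with it in shKDM1A libraries. The groups with and without IL4 were separate in each line, and shKDM1A libraries without IL4 lay above shGFP libraries without it. Nol6 rose by 0.35 (SE 0.03) in shGFP cells (adjusted p = 1.41e-07) and by 0.19 (SE 0.03) in shKDM1A cells (adjusted p = 0.000139), and it was higher in shKDM1A cells without IL4 by 0.11 (SE 0.03, adjusted p = 0.0105). Its response was smaller in shKDM1A cells, with a difference of -0.16 (SE 0.04, adjusted p = 0.0338). With the length trend removed that difference was -0.13 (adjusted p = 0.0766), and without replicates 1 and 3 of shKDM1A with IL4 it was -0.14 (adjusted p = 0.131).

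Heatr1 and Rrp12 are large helical repeat proteins of the same assembly. Heatr1 stood at 11.46, 11.48, 11.48 and 11.42 in shGFP libraries and 11.67, 11.68, 11.63 and 11.63 with IL4, with no overlap, and rose there by 0.19 (SE 0.04, adjusted p = 0.00229). In shKDM1A cells it stood at 11.36, 11.46, 11.48 and 11.46 without IL4 and 11.46, 11.69, 11.46 and 11.57 with it, where replicates 2 and 4 with IL4 were higher than replicates 1 and 3, and its change of 0.10 (SE 0.04) was not called (adjusted p = 0.0779). With the length trend removed it was 0.14 and called (adjusted p = 0.00105), and without replicates 1 and 3 with IL4 it was 0.19 and called (adjusted p = 0.00167). Rrp12 rose by 0.18 (SE 0.04) in shGFP cells and by 0.17 (SE 0.04) in shKDM1A cells, with no overlap in either line.

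Utp15, Utp4 and Wdr75, which belong with Heatr1, Nol11 and Wdr43 to a subcomplex that binds the nascent precursor, fell with IL4 in shGFP cells. Utp15 stood at 10.70, 10.71, 10.69 and 10.67 in shGFP libraries and 10.55, 10.60, 10.62 and 10.63 with IL4, and at 10.62, 10.67, 10.69 and 10.64 without IL4 and 10.56, 10.54, 10.51 and 10.52 with it in shKDM1A libraries, separate in both lines. It fell by 0.09 (SE 0.02, adjusted p = 0.00481) in shGFP cells and by 0.12 (SE 0.02, adjusted p = 0.000491) in shKDM1A cells. Wdr75 stood at 11.01, 11.07, 11.08 and 11.09 without IL4 and 10.98, 10.95, 10.99 and 10.99 with it in shGFP libraries and at 10.99, 11.04, 11.03 and 11.01 without IL4 and 10.97, 10.97, 10.92 and 10.96 with it in shKDM1A libraries, and fell by 0.08 (SE 0.02) and 0.06 (SE 0.02), both called. The second of these calls was lost without replicates 1 and 3 of shKDM1A with IL4 (-0.054, adjusted p = 0.165) and without replicates 2 and 4 (-0.074, adjusted p = 0.0501), and when shKDM1A replicate 2, 3 or 4 or shKDM1A with IL4 replicate 3 was left out alone. Utp4 fell by 0.07 (SE 0.02, adjusted p = 0.0388) in shGFP cells, where the groups overlapped and the call was lost with the length trend removed (-0.059, adjusted p = 0.064), and was lower in shKDM1A cells at -0.14 (SE 0.02) without IL4 and -0.09 (SE 0.02) with it.

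Rrp9 is a protein of the U3 snoRNP, which guides the first cuts of the precursor, and it was highest in shKDM1A cells with IL4. It stood at 10.54, 10.43, 10.46 and 10.52 in shGFP libraries, at 10.47, 10.48, 10.53 and 10.46 in shGFP libraries with IL4 and at 10.54, 10.50, 10.48 and 10.51 in shKDM1A libraries. In shKDM1A libraries with IL4 it stood at 10.71, 10.61, 10.71 and 10.67, all above the other 12. IL4 raised it by 0.17 (SE 0.03) in shKDM1A cells (adjusted p = 0.000247) against 0.00 (SE 0.03) in shGFP cells. With IL4 it was higher in shKDM1A than in shGFP cells by 0.19 (SE 0.03, adjusted p = 4.91e-05). The responses differed by 0.17 (SE 0.04, adjusted p = 0.0197), by 0.14 with the length trend removed (adjusted p = 0.0246), and by 0.14 without replicates 1 and 3 of shKDM1A with IL4 (adjusted p = 0.108).

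Bysl, a factor of late 40S maturation on chromosome 17 from 47736280 to 47748441, stood at 11.24, 11.28, 11.21 and 11.25 without IL4 and 11.20, 11.18, 11.26 and 11.23 with it in shGFP libraries and at 11.23, 11.30, 11.32 and 11.26 without IL4 and 11.41, 11.40, 11.44 and 11.29 with it in shKDM1A libraries. With IL4 all shKDM1A libraries were above all shGFP libraries, by 0.17 (SE 0.03, adjusted p = 0.000282). Bysl rose with IL4 in shKDM1A cells by 0.11 (SE 0.03, adjusted p = 0.0135), not called without replicates 1 and 3 with IL4 (0.07, adjusted p = 0.184). The IL4 response differed by 0.14 (SE 0.04), which was not called (adjusted p = 0.0657) but was without replicates 2 and 4 of shKDM1A with IL4 (0.18, adjusted p = 0.00855). Exons of Ccnd3 on the opposite strand cover 9.16% of the exon bases annotated for Bysl, counting was not by strand, and Ccnd3 was also higher in shKDM1A cells with IL4, by 0.22 (SE 0.03). Without IL4 Ccnd3 was higher there by 0.17 (SE 0.03, adjusted p = 0.00015), where Bysl was at 0.03 (SE 0.03, adjusted p = 0.469), and for IL4 in shKDM1A cells, where Bysl rose, Ccnd3 was at 0.01 (SE 0.03, adjusted p = 0.818). The part of Ccnd3 in the values of Bysl was not tested. Tsr1, another 40S factor, shares 32.3% of its exon bases with Srr on the opposite strand, and was lower in shKDM1A cells at -0.14 (SE 0.02) without IL4 and -0.10 (SE 0.02) with it, against -0.11 for Srr without IL4 and -0.08 (not called) with it. The part of Srr in the values of Tsr1 was not tested either.

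Utp3 stood at 10.77, 10.81, 10.78 and 10.85 without IL4 and 10.80, 10.77, 10.79 and 10.82 with it in shGFP libraries and at 10.78, 10.68, 10.69 and 10.78 without IL4 and 10.72, 10.59, 10.74 and 10.60 with it in shKDM1A libraries, where with IL4 replicates 2 and 4 were lower than replicates 1 and 3. It was lower in shKDM1A cells with IL4 at -0.13 (SE 0.04, adjusted p = 0.00743), a call lost without replicates 2 and 4 (-0.063, adjusted p = 0.151). Utp18 was lower in shKDM1A cells without IL4 at -0.10 (SE 0.03) and rose with IL4 in those cells by 0.10 (SE 0.03). With IL4, Nol10 was also lower in shKDM1A cells, at -0.11 (SE 0.03), as were Utp15 at -0.07 (SE 0.02) and Heatr1 at -0.11 (SE 0.04), and the calls of Utp15 and Heatr1 were lost with the length trend removed. Without replicates 2 and 4 of shKDM1A with IL4, the calls of Nol10 (-0.078, adjusted p = 0.102) and Utp15 (-0.064, adjusted p = 0.0849) were lost, and without replicates 1 and 3 that of Heatr1 (-0.026, adjusted p = 0.632). Leaving out single libraries lost this call of Heatr1 for 7 libraries and that of Utp15 for 3. The 6 processome members Nop14, Nol11, Utp6, Utp14a, Utp20 and Wdr43 passed no test in any comparison, with log2 fold changes between -0.11 and 0.04. Utp20 was called lower in shKDM1A cells without IL4 with the length trend removed (-0.094, adjusted p = 0.0204), and with IL4 without replicates 2 and 4 of that group (-0.22, adjusted p = 0.00246).

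Among the 11 factors of 60S assembly, more rose with IL4 in shKDM1A cells than in shGFP cells, a difference in counts that was not itself tested. Without IL4, 7 of them were lower in shKDM1A cells (Nop2, Rrp1b, Rrs1, Wdr12, Bop1, Ftsj3 and Gnl3; 63.6%, against 18.4% of all genes) and 1 was higher (Nol8; 9.09%, against 19.7%), with a median of -0.071. IL4 raised 7 in shKDM1A cells (Nop2, Nop16, Rrp8, Wdr12, Bop1, Pes1 and Ftsj3; 63.6%, against 13.6%; median 0.088) and 2 in shGFP cells (Pes1 and Ftsj3; 18.2%, against 13.1%; median 0.022). The rise in shKDM1A cells and the lower level without IL4 both use the 4 shKDM1A libraries without IL4, with opposite sign. Nop2, Wdr12, Bop1 and Ftsj3 are in both lists of 7, so these counts are not independent. With IL4, 4 of the 11 were lower in shKDM1A than in shGFP cells (Rrp1b, Rrs1, Wdr12 and Gnl3; 36.4%, against 19.8%) and 1 was higher (Nop16; 9.09%, against 20.9%). The IL4 response itself was called higher in shKDM1A cells for 2 of the 11 (Nop16 and Bop1; 18.2%, against 3.56%) and lower for 0. Without replicates 1 and 3 of shKDM1A with IL4 only Nop16 kept that call.

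Pes1, Bop1 and Wdr12 form the PeBoW complex, which is required for 28S and 5.8S ribosomal RNA to be cut from the precursor. Wdr12 stood at 11.18, 11.22, 11.18 and 11.23 in shGFP and 11.09, 11.02, 11.01 and 10.99 in shKDM1A libraries, and with IL4 at 11.22, 11.21, 11.22 and 11.25 (shGFP) and 11.13, 11.13, 11.15 and 11.21 (shKDM1A). The lines did not overlap without IL4, where Wdr12 was lower at -0.18 (SE 0.02, adjusted p = 1.85e-05), the largest fall of any member in that comparison. With IL4 it was lower at -0.07 (SE 0.02, adjusted p = 0.0285), a call lost without replicates 1 and 3 of shKDM1A with IL4 (-0.055, adjusted p = 0.186). That call was also lost when any of 5 libraries was left out alone. IL4 raised it by 0.13 (SE 0.02) in shKDM1A cells (adjusted p = 0.000637).

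Bop1 was at 11.99, 12.05, 12.02 and 12.09 in shGFP and 12.09, 12.14, 12.06 and 12.09 in shGFP with IL4 libraries, which overlapped, and at 11.90, 11.95, 11.92 and 11.90 without IL4 and 12.15, 12.09, 12.10 and 12.10 with it in shKDM1A libraries, which did not. It was lower in shKDM1A cells without IL4 at -0.12 (SE 0.02, adjusted p = 0.00105) and rose there with IL4 by 0.19 (SE 0.02, adjusted p = 1.47e-05), against 0.06 (SE 0.02) in shGFP cells (adjusted p = 0.0751), which was called with the length trend removed (0.07, adjusted p = 0.0463). The responses differed by 0.13 (SE 0.03, adjusted p = 0.033), by 0.12 with the length trend removed (adjusted p = 0.0464) and by 0.12 without replicates 1 and 3 of shKDM1A with IL4 (adjusted p = 0.125). Pes1, whose promoter holds the E-box printed earlier, rose by 0.08 (SE 0.02) in shGFP cells and by 0.15 (SE 0.02) in shKDM1A cells.

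Nop16 had the largest difference in IL4 response of any member. On chromosome 13 from 54685552 to 54691435 on the minus strand, with the STAT6 motif printed earlier in its promoter, it stood at 11.40, 11.40, 11.41 and 11.47 in shGFP libraries, 11.33, 11.39, 11.36 and 11.38 in shGFP libraries with IL4, 11.41, 11.41, 11.42 and 11.40 in shKDM1A libraries and 11.53, 11.52, 11.62 and 11.54 in shKDM1A libraries with IL4. All libraries of the last group were above the other 12. Nop16 rose in shKDM1A cells by 0.14 (SE 0.02, adjusted p = 0.000198), changed by -0.05 (SE 0.02) in shGFP cells (adjusted p = 0.0984), and was higher in shKDM1A than in shGFP cells with IL4 by 0.19 (SE 0.02, adjusted p = 7.98e-06). The responses differed by 0.20 (SE 0.03, adjusted p = 0.00196). It was the only member whose call for this difference was kept both with the length trend removed (0.17, adjusted p = 0.00331) and without replicates 1 and 3 of shKDM1A with IL4 (0.18, adjusted p = 0.00669).

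Rrp1b, a nucleolar protein of 60S particles, was lower in shKDM1A cells in both conditions. Its libraries stood at 11.10, 11.13, 11.10 and 11.06 without IL4 and 11.19, 11.15, 11.13 and 11.11 with it in shGFP cells and at 10.97, 10.93, 10.90 and 10.96 without IL4 and 10.90, 10.99, 10.96 and 11.01 with it in shKDM1A cells, with no overlap between the lines. It was lower at -0.16 (SE 0.03, adjusted p = 0.000167) without IL4 and at -0.18 (SE 0.03, adjusted p = 3.94e-05) with it, the largest fall of any member in the latter comparison. Nol8, by contrast, stood at 10.61, 10.72, 10.68 and 10.60 in shGFP and 10.79, 10.77, 10.77 and 10.70 in shKDM1A libraries without IL4, which overlapped by 1 library of each line, and was higher by 0.10 (SE 0.03, adjusted p = 0.00965).

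Among the remaining 60S factors, Rrs1, which brings the 5S particle into the 60S precursor, was lower in shKDM1A cells at -0.13 (SE 0.02) without IL4 and -0.07 (SE 0.02) with it, the latter not called without replicates 2 and 4 of shKDM1A with IL4 (-0.048, adjusted p = 0.19). Gnl3 (nucleostemin), a GTP-binding protein of proliferating cells, was lower at -0.09 (SE 0.02) and -0.08 (SE 0.02), the latter not called without replicates 1 and 3 of that group (-0.078, adjusted p = 0.0573). Nop2, a methyltransferase of 28S ribosomal RNA whose promoter holds the E-box printed earlier, was lower at -0.06 (SE 0.02) without IL4 and rose with IL4 in shKDM1A cells by 0.09 (SE 0.02). Ftsj3 was lower in shKDM1A cells without IL4 at -0.07 (SE 0.02) and rose with IL4 by 0.09 (SE 0.02) in shGFP and 0.11 (SE 0.02) in shKDM1A cells, and Rrp8, a methyltransferase, rose in shKDM1A cells by 0.09 (SE 0.03, adjusted p = 0.049), a call lost without either pair of shKDM1A libraries with IL4. Exons of Ilk on the opposite strand cover 11.6% of those of Rrp8, and Ilk was also higher with IL4 in shKDM1A cells, by 0.13 (SE 0.02). In shGFP cells Ilk rose by 0.11 (SE 0.02, adjusted p = 0.00367), where Rrp8 was at 0.01 (SE 0.03, adjusted p = 0.83). The part of Ilk in the values of Rrp8 was not tested. Ddx21, a helicase that links RNA polymerase I transcription and processing, rose with IL4 in shGFP cells by 0.08 (SE 0.02) and changed by 0.04 (SE 0.02) in shKDM1A cells, which was called with the length trend removed alone (0.05, adjusted p = 0.028).

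**Figure D4:**
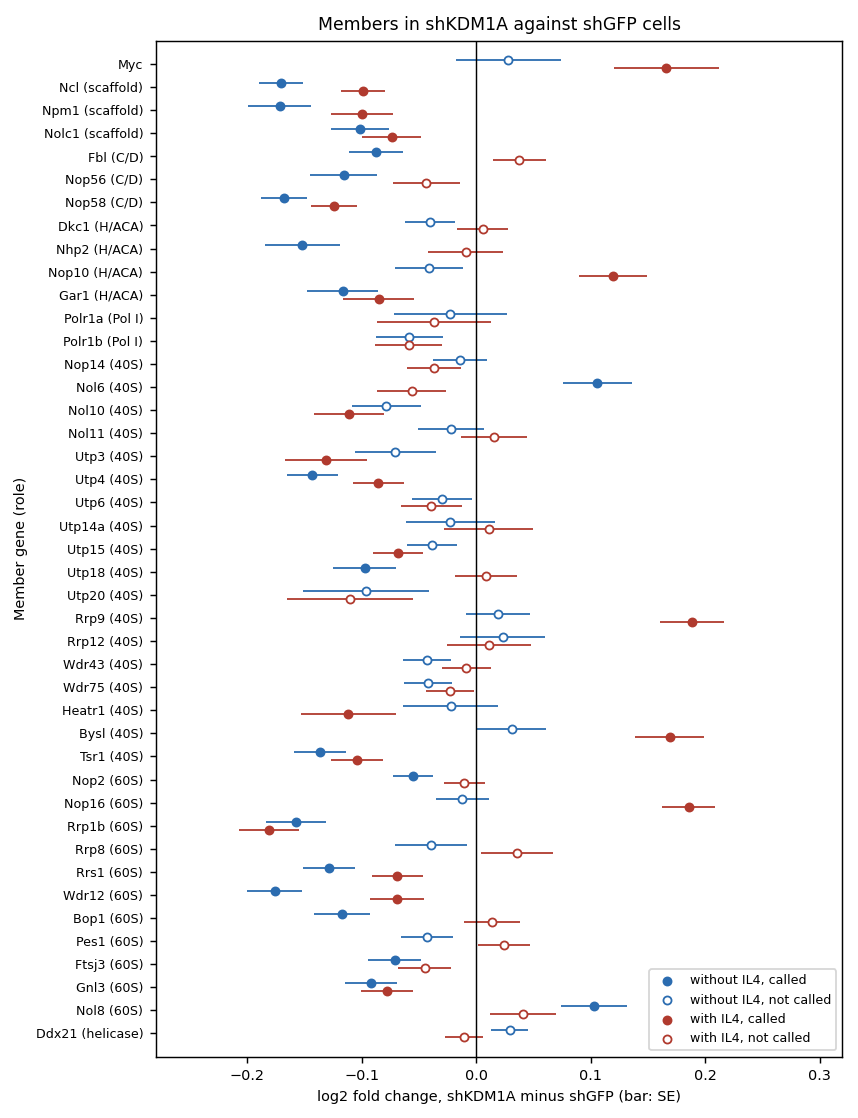
Log2 fold change of each member in shKDM1A against shGFP cells (horizontal axis, with its SE as a bar), without IL4 and with IL4. Filled points were called at an adjusted p under 0.05, 18 lower and 2 higher without IL4, and 15 lower and 5 higher with IL4, and no point lies beyond 0.2 on either side.

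The difference in IL4 response between the lines moved with gene length. Across the 43 members it correlated with summed exon length at a Spearman's rho of -0.62, and across all 12905 genes at -0.41 (members and genes share the same libraries, and no test is attached). The 21 members shorter than 2912 bases had a median difference of 0.072 and held all 5 that were called higher, and the 22 others had a median of -0.0050 and held Nol6. For the IL4 responses themselves rho over the members was 0.48 in shGFP cells and -0.0027 in shKDM1A cells, and for shKDM1A against shGFP it was 0.28 without IL4 and -0.21 with it. Removing the length trend from each library left rho over the members at -0.27 for the difference in response, and 4 of the 6 called members (Nop10, Rrp9, Nop16 and Bop1). Without replicates 1 and 3 of shKDM1A with IL4 only Nop16 was called, and without replicates 2 and 4 there were 7 higher and 2 lower. Leaving out single libraries lost the call of Bop1 and Fbl for 10 of the 16 libraries each, that of Nol6 for 9 and that of Nop10 for 7, while Nop16 and Rrp9 lost it for no library. How much of the differences called follows from length was not tested further.

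**Figure D5:**
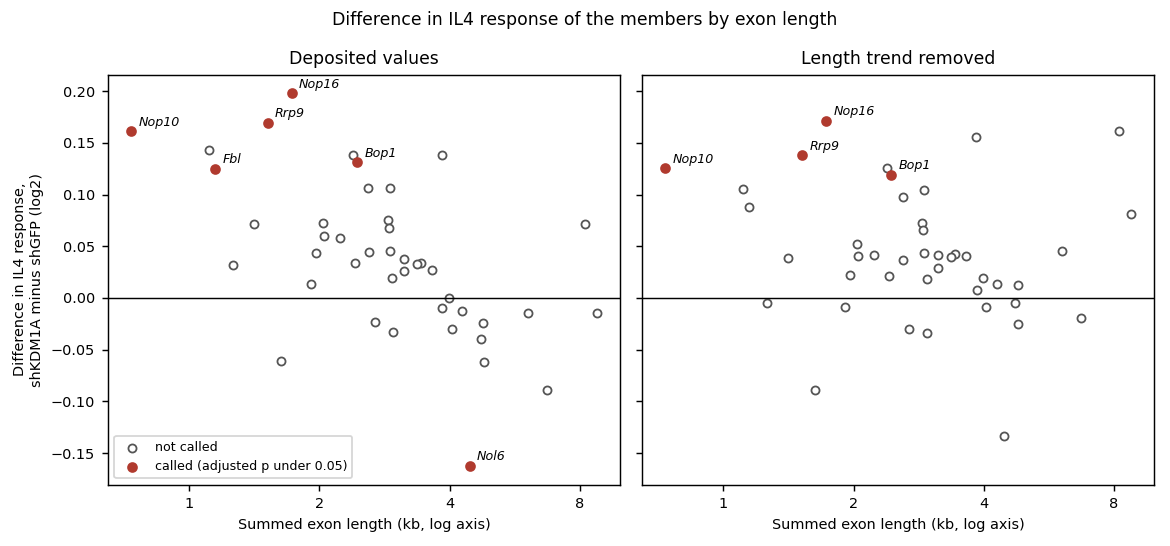
Difference in IL4 response, shKDM1A minus shGFP (vertical axis, log2), of the 43 members against summed exon length (horizontal axis, kb, log scale), for the deposited values on the left and with the length trend of each library removed on the right. Filled points were called, and the downward slope of the left panel (rho -0.62) is weaker on the right (-0.27).

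Genes of the same pathway outside the 43 were counted in the same way. Of 56 other ribosome biogenesis factors 54 were tested. IL4 raised 9 (16.7%) and lowered 6 (11.1%) of them in shGFP cells, near the 13.1% and 13.7% of all genes, with Tbl3 at 0.14 and Ddx10 at 0.13 the most raised and Krr1 at -0.14 and Imp3 at -0.12 the most lowered. In shKDM1A cells IL4 raised 16 (29.6%, against 13.6%) and lowered 2 (3.70%, against 13.5%), with Tbl3 at 0.20 and Rrp7a at 0.19 the most raised. Without IL4, 13 were lower (24.1%, against 18.4%) and 4 higher (7.41%, against 19.7%) in shKDM1A cells, the latter led by Ddx10 at 0.41 and Imp3 at 0.33, and with IL4 5 were lower (9.26%, against 19.8%) and 13 higher (24.1%, against 20.9%). The median of these genes with IL4 was 0.0066, while that of the members was -0.037.

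Of 16 other genes of the RNA polymerase I machinery 13 were tested. IL4 raised 2 and lowered 2 of them in shGFP cells (15.4% each, against 13.1% and 13.7% of all genes; median -0.024) and raised 3 in shKDM1A cells (23.1%, against 13.6%; median 0.010). Taf1d, at -0.14, and Taf1c, at -0.10, were the 2 lower in shGFP cells. Ubtf, which binds and opens the ribosomal RNA genes, rose with IL4 by 0.14 (SE 0.02) in shGFP cells and 0.20 (SE 0.02) in shKDM1A cells, and the polymerase-associated factor Cd3eap by 0.17 (SE 0.04) and 0.23 (SE 0.04). Without IL4, 5 were lower in shKDM1A cells (38.5%, against 18.4% of all genes), with Taf1d at -0.15 and Taf1a at -0.14 the lowest. With IL4, 2 were lower (15.4%, against 19.8%) and 1 was higher (7.69%, against 20.9%), with a median of -0.0012. The 12 tested genes of the RNA exosome, which trims ribosomal RNA, included 6 that were lower in shKDM1A cells without IL4 (50.0%, against 18.4%), led by Exosc8 at -0.17 and Exosc3 at -0.16, and 3 that rose with IL4 in those cells (25.0%, against 13.6%). With IL4, 2 were lower in shKDM1A cells (16.7%, against 19.8%). In shGFP cells IL4 raised 0 and lowered 0 of the 12 (against 13.1% and 13.7% of all genes; median 0.018). Among 9 tested snoRNP assembly factors, IL4 raised 4 in shKDM1A cells (44.4%, against 13.6%), led by the helicase pair Ruvbl1 and Ruvbl2 at 0.14 each, and lowered 1, Naf1 at -0.11 (11.1%, against 13.5%), while in shGFP cells it raised 0 and lowered 1, Shq1 at -0.097 (11.1%, against 13.7%; median -0.028). Without IL4, 2 of the 9 were lower in shKDM1A cells (Pih1d1 and Ruvbl1, at -0.15 each; 22.2%, against 18.4%) and 0 were higher, and with IL4, 1 was higher and 1 lower (11.1% each, against 20.9% and 19.8%).

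Within the Myc network, which had 11 tested genes of 14, IL4 raised 1 in each line (9.09%, against 13.1% in shGFP and 13.6% in shKDM1A cells), Mxd4, a partner of Max that competes with Myc, by 0.30 (SE 0.04) in shGFP cells and 0.25 (SE 0.04) in shKDM1A cells. It lowered 2 in shGFP cells (18.2%, against 13.7%), Mycn and Mxi1 (-0.073), and 1 in shKDM1A cells (9.09%, against 13.5%), Mycn, which fell by 0.24 (SE 0.02) and 0.19 (SE 0.02). Mycn, a relative of Myc, stood at 14.19 to 14.52 over the 16 libraries, on the scale that is not per length, where Myc stood at 6.22 to 7.11. Mxd4 was also higher in shKDM1A cells, by 0.25 (SE 0.04) without IL4 and 0.21 (SE 0.04) with it. Between the lines 2 were higher (18.2%, against 19.7%) and 1 lower (9.09%, against 18.4%) in shKDM1A cells without IL4, and 4 were higher (36.4%, against 20.9%) and 1 lower (9.09%, against 19.8%) with it. Of 20 other known Myc targets IL4 raised 4 (20.0%, against 13.1% of all genes) and lowered 5 (25.0%, against 13.7%) in shGFP cells, with Cad, of pyrimidine synthesis, at 0.22 and the transferrin receptor Tfrc at -0.21, and raised 7 (35.0%, against 13.6%) and lowered 2 (10.0%, against 13.5%) in shKDM1A cells. Without IL4, 10 of the 20 were lower in shKDM1A cells (50.0%, against 18.4%) and 5 higher (25.0%, against 19.7%), with Eif4a1, an RNA helicase of translation initiation, at -0.17 and Tfrc at 0.76. With IL4, 7 were lower (35.0%, against 19.8%) and 6 higher (30.0%, against 20.9%). Of 12 proliferation genes IL4 raised 6 in each line (50.0%, against 13.1% in shGFP and 13.6% in shKDM1A cells) and lowered 1 in shGFP cells (8.33%, against 13.7%). Mki67 rose by 0.35 (SE 0.09) in shGFP cells, and the highest value of the 12 in shKDM1A cells was 0.20. Between the lines 5 were lower (41.7%, against 18.4%) and 2 higher (16.7%, against 19.7%) in shKDM1A cells without IL4. With IL4, 5 were lower (41.7%, against 19.8%) and 3 higher (25.0%, against 20.9%). The part of proliferation in the members' values was not tested.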

How the data were processed

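RNA-seq of RAW264.7 cells was analysed in 16 libraries, 4 per group. The authors aligned reads to mm9 with HISAT2 and Bowtie2, counted tags on exons of both strands with HOMER, ran DESeq2 through HOMER and deposited normalized log2 values per gene and library. The transformation behind these log2 values is not given in the sources used here, and fold changes of genes with few reads may be understated, which was not tested. Columns that hold the authors' comparisons (fold changes and p-values), in this table and in that of BMDMs, were not used, and 0 columns of unmatched samples were found. Decimal commas were read as points.

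Genes that reached a level of 1 or more in 4 or more libraries were tested with limma 3.58.1 (R 4.3.3), with 1 model over the 4 groups, and p-values were adjusted by the Benjamini-Hochberg method over all genes tested. The script was tested on simulated data. Tables and plots were made with Python 3.11.15, pandas 2.3.3 and matplotlib 3.10.9. The members and lists were chosen with earlier results of these data known. Per-library values were given for 6 fixed members and for up to 3 called members with the largest change in each direction of a comparison, and for all 6 members called for the difference in response. Genes overlapping on the opposite strand were chosen after the data were seen. Alternatives were quantile normalization, median centring, other filters, a trended prior, a fold change minimum, models of the compared groups only, a replicate block, and leaving out each library. Depth was 17554721 to 27782568 tags per library, and log2 values carry no counting interval. Other assays and the BMDM libraries were not analysed here.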

Additional observations from a re-analysis of the deposited data

Results flagged for a closer look

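The level of Dkc1 in replicate 4 of shGFP with IL4 was 12.10, apart from the other 3 libraries of the group, the nearest of which was at 12.04 (gap over range 0.93). Chance alone sets about 1 in 20 groups of 4 apart in this way, and 7 of the 172 groups of members had such a library.

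For 6 members the IL4 response differed between the lines by limma's test of the difference itself (shKDM1A minus shGFP, log2). The difference was 0.20 for Nop16 (adjusted p = 0.00196), 0.17 for Rrp9 (adjusted p = 0.0197), 0.16 for Nop10 (adjusted p = 0.033), 0.13 for Bop1 (adjusted p = 0.033), 0.13 for Fbl (adjusted p = 0.0357) and -0.16 for Nol6 (adjusted p = 0.0338). Without replicates 1 and 3 of shKDM1A with IL4 all of these calls but that of Nop16 were lost, and with the length trend removed those of Fbl and Nol6 were.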

How the results depend on the processing

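With an absolute log2 fold change over 0.2 also required, the members called higher and lower numbered 2 and 0 for IL4 in shGFP cells, 1 and 0 for IL4 in shKDM1A cells, and 0 and 0 between the lines without IL4, with IL4, and for the difference in response. Members lower with IL4 in shGFP cells numbered 3 with only the compared groups in the model and with quantile normalization. Members lower with IL4 in shKDM1A cells numbered 1 with a stricter filter, only the compared groups, median centring, a trended prior, or replicates 2 and 4 of shKDM1A with IL4 left out. Leaving out that pair gave 9 members lower in shKDM1A cells with IL4 and 2 with a smaller response; leaving out replicates 1 and 3 gave 1 with a larger response and 0 with a smaller one. The smaller response numbered 0 also with no filter and with the length trend removed. The cause of these shifts was not tested.

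Leaving out 1 library gave 7 to 9 higher and 3 to 6 lower for IL4 in shGFP cells (3 without shGFP replicate 3 or shGFP with IL4 replicates 2 or 4). For IL4 in shKDM1A cells it gave 15 to 19 and 1 to 3 (1 without shKDM1A replicates 2, 3 or 4 or shKDM1A with IL4 replicate 3). Between the lines it gave 2 higher and 17 to 19 lower without IL4, and 5 higher and 11 to 15 lower with it. For the difference in response it gave 2 to 6 higher and 0 to 1 lower. The higher count was 2 without shGFP replicate 4, shKDM1A replicate 3 or shKDM1A with IL4 replicate 1, and 3 without shGFP replicate 1, any library of shGFP with IL4, shKDM1A replicate 4 or shKDM1A with IL4 replicate 3. The lower count was 0 without shGFP replicates 1 or 3, shGFP with IL4 replicates 2 or 3, shKDM1A replicates 2, 3 or 4, or shKDM1A with IL4 replicates 1 or 3. The rise of Myc with IL4 ranged from 0.52 to 0.56 in shGFP cells and from 0.64 to 0.71 in shKDM1A cells.

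With a replicate block, 8 members were higher and 4 lower for IL4 in shGFP cells, 16 and 2 in shKDM1A cells, 2 and 19 between the lines without IL4, 5 and 15 with it, and 4 and 1 for the difference. Of 24 correlations between libraries of the same number, from -0.34 to 0.27, 3 were over 0.1, and 6 of 16 libraries were closest to their own number, so the numbers were not taken as pairs. Over the named members and all settings, 2429 values kept their side of the threshold, 125 lost a call and 25 gained one. Of all values 44 changed sign, 43 of them called under neither setting and 1 called as reported (Ncl, IL4 in shKDM1A cells, -0.000875 under quantile normalization). The deposited values carry no counts, so counting error could not be separated from other spread.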
